A study of Mus musculus with 5 samples.

Results

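The genes described here are those of the red cell: adult globins, the transcription factors and receptors of erythroblasts, and the proteins of the red cell membrane and its skeleton. They were taken from a list of 33 gene symbols, matched exactly in the gene counts of 5 libraries, and 32 of them had a row among 55291 symbols. Ahsp, which encodes a chaperone of free alpha globin, was not analysed here. All 32 passed the filter on low counts that left 17062 genes for testing. The libraries were made from RNA of mouse bone marrow cells labelled "mononcytes". They comprise 2 Tet2-mutant libraries, numbered 2 and 3, and 3 wild-type (WT) libraries, numbered 1, 2 and 3. No strain, age, sex, treatment or sorting step shared by or differing between the groups was given in the labels, nor was the kind of Tet2 mutation, or the cells in which it is present. The labels also do not say whether the libraries came from separate animals, and a p-value here therefore reflects the spread among these libraries alone, part of which may be technical.

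Erythroblasts are the nucleated precursors of red cells. In them GATA1 and TAL1 form a DNA-bound complex, and KLF1 acts at many of the same genes, among them the globins and membrane proteins. Erythropoietin acts through its receptor EPOR to keep young erythroblasts alive, and iron enters through the transferrin receptor for heme synthesis. The maturing cell then fills with haemoglobin, a tetramer of alpha and beta chains, and lays a spectrin net under its membrane. The DNA dioxygenase TET2 oxidises 5-methylcytosine, and its loss in blood stem cells is known to shift myeloid and erythroid output.

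Total counts were 17459808 and 60508381 in Tet2-mutant replicates 2 and 3, and lay between 53789308 and 72414875 in the WT libraries. Genes with any count numbered 18047 and 17944 in the mutant libraries, and 24532, 25612 and 26207 in WT. Replicate 3 thus had fewer detected genes than WT although its total count lay in the WT range. This difference goes with genotype, and its part in the results was not tested. Tet2 itself was at 3.84 and 13.9 CPM (counts scaled to the library total) in the Tet2-mutant libraries and at 13.9, 11.3 and 12.0 CPM in the WT libraries, with a log2 fold change of -0.04 ± 0.58 (SE, adjusted p = 0.966, edgeR quasi-likelihood test). Tet2 was lower in mutant replicate 2 alone (-1.02 ± 0.30, adjusted p = 0.0368, edgeR), and had a log2 fold change of 0.53 ± 0.26 in mutant replicate 3 alone (adjusted p = 0.113, edgeR). The kind of mutation is not given, so this level does not check the labels. The labelled cell type was checked against 10 monocyte genes, none of which was at 0 in any library. Their sum was 21713 and 17597 CPM in the Tet2-mutant libraries, against 15658 to 17440 CPM in the WT libraries. Of the 10, 8 had a positive log2 fold change and 2 a negative one. Ly6c2 fell, with 277 CPM (replicate 2) and 147 CPM (replicate 3) against 410 to 580 CPM across WT. Most of the sum came from Lyz2, with 19449 CPM (replicate 2) and 15997 CPM (replicate 3) against 13641 to 15519 CPM across WT. The sum thus mainly follows Lyz2 and does not by itself show the cell type. Neutrophil genes were higher still, at 38518 and 21195 CPM summed over 10 genes in the mutant libraries and 54074 to 67740 CPM in WT. The RNA of every library therefore also held granulocyte and, as given below, erythroid transcripts.

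Levels below are CPM of each library's total count, and SDs are over 2 mutant or 3 WT libraries. Fold changes come from edgeR's fit with TMM scaling, are Tet2-mutant over WT on the log2 scale, and carry an SE. A gene was called at a Benjamini-Hochberg adjusted p under 0.05 over all tested genes. The TMM factors were 0.723 and 0.896 in the mutant libraries and 1.14 to 1.17 in WT. With total counts as the only scaling, the median over all genes moved by -0.51 on the log2 scale, and fitted fold changes stand above the ratios of the printed CPM by about as much. In these bulk samples, fewer cells of a type and less RNA per cell cannot be told apart.

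The regulatory sequence before these genes was read first, since the members include GATA1 and KLF1 as well as genes known to be bound by them. RefSeq starts (GRCm38.p6) gave 31 promoters for 25 of the member genes. In the 250 bases before the start, the GATA-factor word GATAA, read as TTATC on the other strand, was present in 17 of 31 member promoters, or 54.8%, against 22.6% of all 32851 promoters of the same length. The KLF1 word CCNCNCCC, read as GGGNGNGG on the other strand, was present in 18, or 58.1%, against 45.9% of all promoters. The CCAAT box, read as ATTGG on the other strand, was present in 16, or 51.6%, against 33.8%. The E-box CAGNTG, a TAL1 word that reads CANCTG on the other strand, was present in 51.6% against 44.8%, and the NF-E2 word TGANTCA in 6.45% against 6.75%. GATAA and CCNCNCCC stood together in 5 member promoters, 16.1%, against 6.89% of all. A word in a window is a description of its letters and not a bound site.

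The promoters of the globins and of Epor are shown because the globins were among the members that overlapped WT in 1 mutant library, while Epor had the smallest adjusted p of the members. Hba-a2 (chr11:32296242-32296491, plus strand), Hbb-bs (chr7:103827929-103828178, minus strand), Hbb-bt (chr7:103813924-103814173, minus strand) and Epor (chr9:21963577-21963826, minus strand) are given 5′ to 3′, ending at the base before the RefSeq start. Capitals mark GATAA, CCNCNCCC and CCAAT on either strand, and matches that overlap run together.
Hba-a2: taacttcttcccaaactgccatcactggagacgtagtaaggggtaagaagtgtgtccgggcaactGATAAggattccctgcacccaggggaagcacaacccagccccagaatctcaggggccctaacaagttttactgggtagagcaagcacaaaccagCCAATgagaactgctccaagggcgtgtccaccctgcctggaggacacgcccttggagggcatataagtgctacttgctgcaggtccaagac
Hbb-bs: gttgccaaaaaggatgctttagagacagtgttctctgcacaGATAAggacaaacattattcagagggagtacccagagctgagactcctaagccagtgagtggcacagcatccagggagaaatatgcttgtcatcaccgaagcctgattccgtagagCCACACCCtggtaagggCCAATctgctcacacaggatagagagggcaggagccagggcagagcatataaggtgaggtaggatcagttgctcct
Hbb-bt: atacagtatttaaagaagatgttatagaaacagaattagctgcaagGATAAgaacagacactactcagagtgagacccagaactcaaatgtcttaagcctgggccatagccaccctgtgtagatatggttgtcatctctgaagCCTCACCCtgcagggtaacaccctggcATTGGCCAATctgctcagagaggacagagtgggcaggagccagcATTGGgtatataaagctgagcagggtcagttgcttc
Epor: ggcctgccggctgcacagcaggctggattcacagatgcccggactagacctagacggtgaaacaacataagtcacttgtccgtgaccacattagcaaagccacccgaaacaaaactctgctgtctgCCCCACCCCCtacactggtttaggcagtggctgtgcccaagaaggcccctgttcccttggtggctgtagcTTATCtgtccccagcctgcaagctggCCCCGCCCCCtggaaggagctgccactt

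The Hba-a1 window (chr11:32283422-32283671, plus strand) aligned to that of Hba-a2 at 247 identical bases with 0 mismatches, the windows being offset by 3 bases. The alpha-globin windows held GATAA and a CCAAT box and no match to CCNCNCCC in these 250 bases. The beta-globin windows were identical at 178 aligned positions, 69.3% of the alignment. In Hbb-bs the KLF1 word begins at position -93 and the CCAAT box at -76, counted back from the start. In Hbb-bt the KLF1 word begins at position -107, and 3 CCAAT boxes were found. The Epor window held the GATA word at position -54, on the opposite strand, and overlapping matches of the KLF1 word at 2 places, with no CCAAT box.

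Among the 32 members, 2 were called lower in the Tet2-mutant libraries and 0 higher. The 2, 6.25% of the members, were Epor and Ank1, and of all tested genes 4.43% were called lower and 10.6% higher. The share of lower calls was thus near the background. With total counts as the only scaling 9 members, 28.1%, were called lower and 0 higher, against 16.9% and 6.92% of all genes. At an unadjusted p under 0.05, 8 of 32 members were lower and 0 higher, against 3182 lower and 3503 higher of 17062 genes. Fold changes were negative for 30 of 32 members, against 52.0% of all tested genes, and their median was -1.24, against -0.07 over all genes. The SE of the members had a median of 0.76, and the mutant libraries lay far apart, which is described for each below.

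Every member was lower in Tet2-mutant replicate 3 than in Tet2-mutant replicate 2, by 1.54-fold for Ank1 to 31.2-fold for Trim58, with a median of 6.60-fold in CPM. Among all tested genes 48.1% were lower in replicate 3. All 32 members were also below every WT library in Tet2-mutant replicate 3, against 57.1% of all genes. In Tet2-mutant replicate 2, 26 members were below every WT library and 6 lay within the WT range, against 66.2% of all genes below. With TMM-adjusted library sizes 16 were below in replicate 2, against 50.3% of all genes. In replicate 3 all 32 were below with these sizes, against 8390 of 17062 genes. With the same sizes 3 members, Hba-a1, Hba-a2 and Trim58, were above every WT library in replicate 2, against 6034 of 17062 genes. Below every WT library in both mutant libraries were 26 members by CPM, against 46.8% of all genes, and 16 with TMM-adjusted sizes, against 33.3%. The comparison of the mutant libraries with each other has 1 library a side and so no replicate check.

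**Figure D1:**
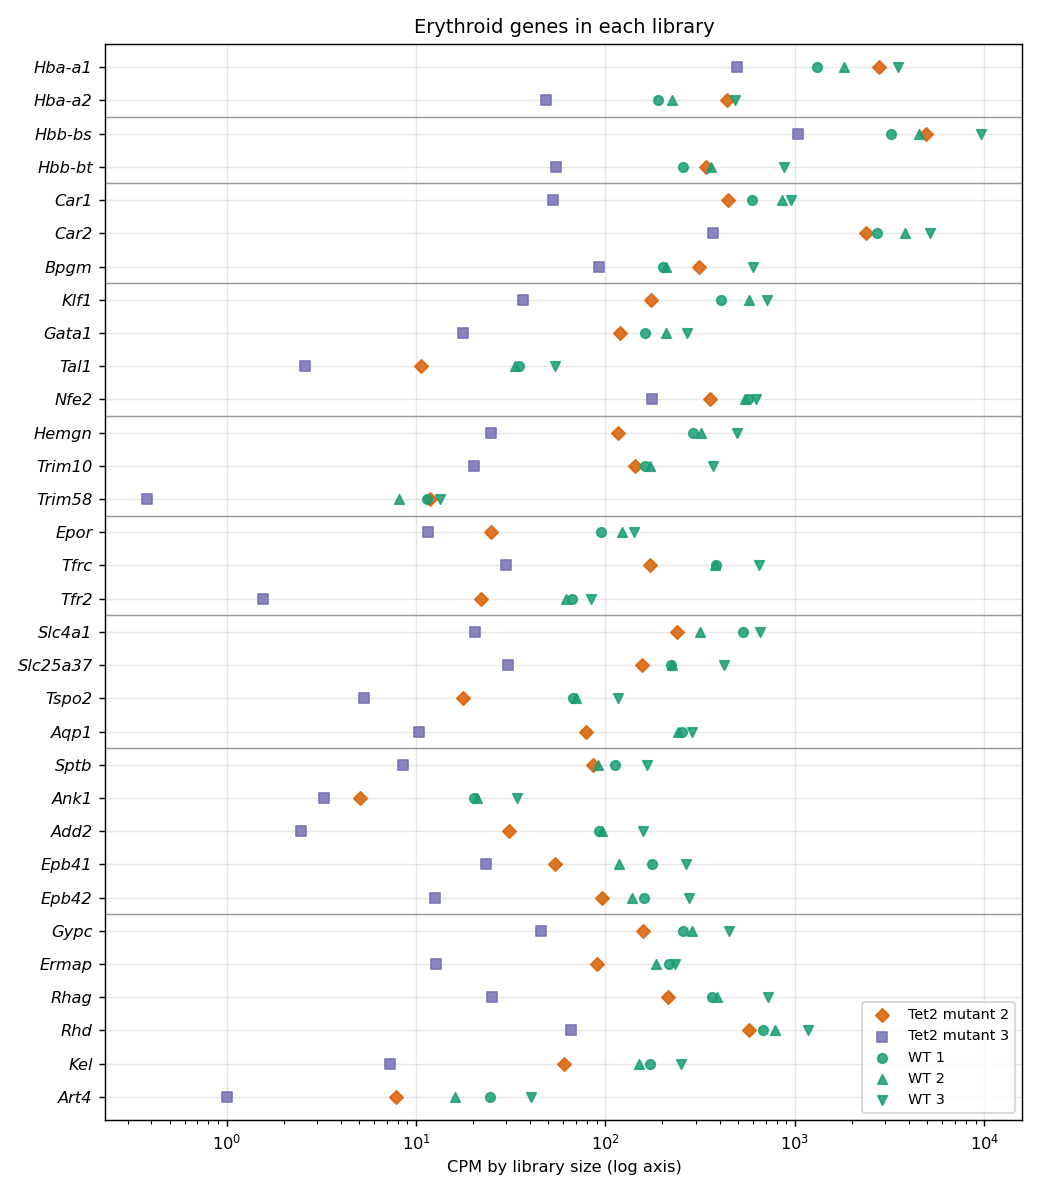
CPM (log axis) of each of the 32 members in every library, Tet2-mutant libraries listed above WT in the legend, members grouped by role. Tet2-mutant replicate 3 is the lowest library for all 32, and WT replicate 3 is the highest of the WT libraries for all 32.

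Each mutant library was then fitted against the 3 WT libraries without the other, with the lone library assumed to vary like WT. Both fits use the same WT libraries. In Tet2-mutant replicate 3, 31 of 32 members were lower, or 96.9%, against 32.2% of all genes called lower and 26.5% called higher. The exception was Bpgm (adjusted p = 0.107). In Tet2-mutant replicate 2, 7 members were lower, or 21.9%, against 18.4% of all genes called lower and 21.0% called higher. These were Tal1, Epor, Ank1, Add2, Tfr2, Tspo2 and Aqp1, and the share was near the background. The WT mean was 3.29-fold (Nfe2) to 46.9-fold (Add2) above Tet2-mutant replicate 3 in CPM, with a median of 14.6-fold. Against Tet2-mutant replicate 2 it was 0.682-fold (Hba-a2) to 4.97-fold (Ank1) of the mutant level, with a median of 2.10-fold.

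**Figure D2:**
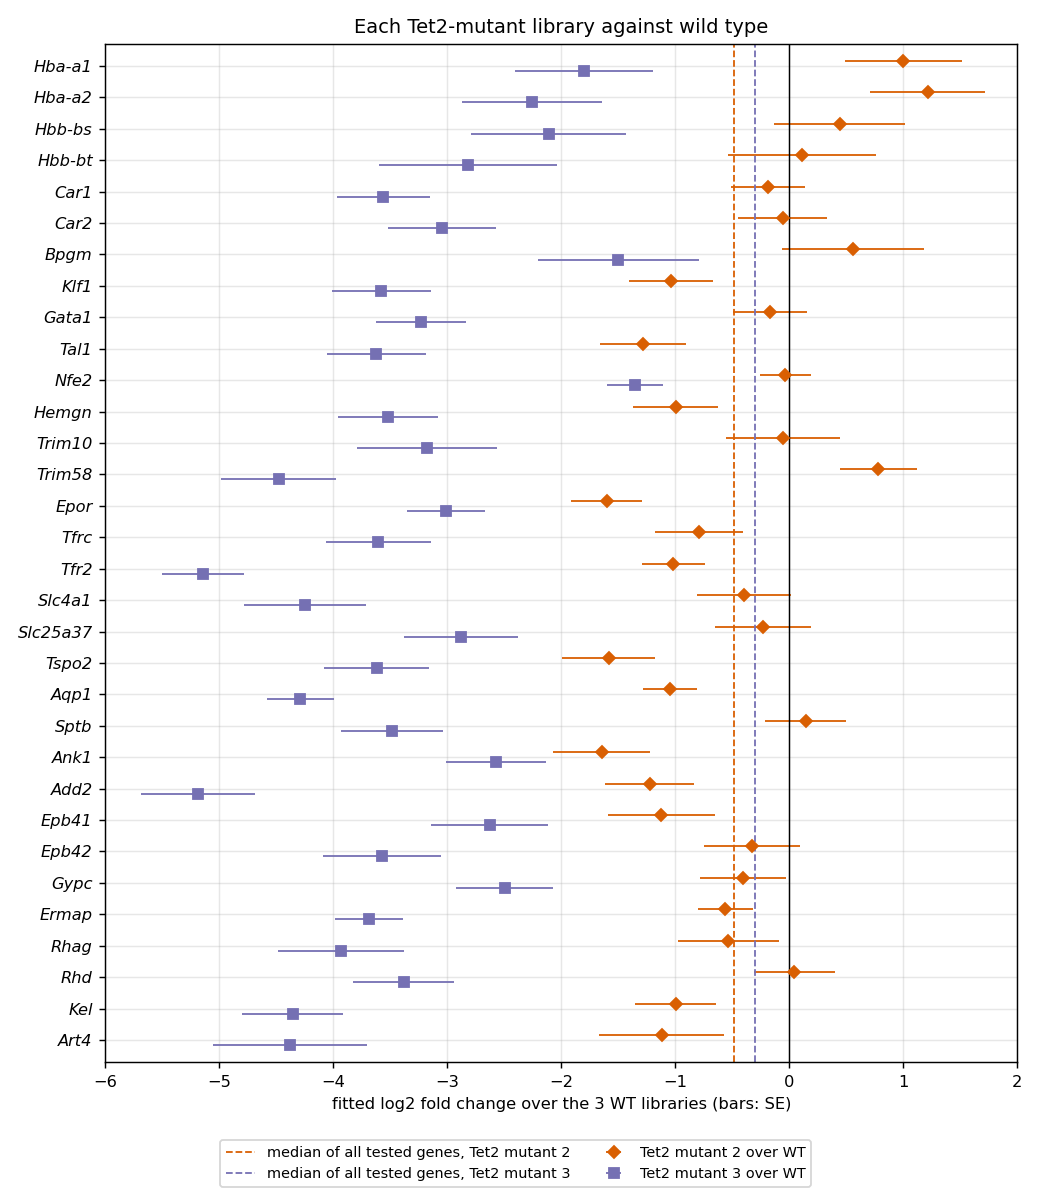
Log2 fold change over WT of each member, from edgeR fits of Tet2-mutant replicate 2 alone and Tet2-mutant replicate 3 alone, with bars for the SE. In replicate 3 values run from -5.19 (Add2) to -1.35 (Nfe2), and in replicate 2 from -1.65 (Ank1) to 1.21 (Hba-a2).

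Haemoglobin chains are encoded by 4 of the members, of which Hbb-bs and Hba-a1 had the highest levels per kilobase of exon. Hbb-bs, an adult beta chain, was at 4951 and 1041 CPM in the Tet2-mutant libraries and at 3217, 4506 and 9582 CPM in the WT libraries. The mutant replicate 2 value lay inside the WT range and the replicate 3 value below it. Over 5 libraries its log2 fold change was -0.33 ± 0.75 (adjusted p = 0.764), and in replicate 3 alone it was lower, with a log2 fold change of -2.11 ± 0.68 (adjusted p = 0.0356, edgeR). Its neighbour Hbb-bt had 340.0 and 55.0 CPM in the mutant libraries and 255, 363 and 876 CPM in WT, lower in replicate 3 alone (-2.82 ± 0.78, adjusted p = 0.0221, edgeR).

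The alpha chain genes behaved alike in order. Hba-a1 was at 2793 and 493 CPM in the Tet2-mutant libraries and at 1305, 1809.7 and 3504 CPM in WT, with a log2 fold change of 0.20 ± 0.76 (adjusted p = 0.858, edgeR), which was negative with total counts as the scaling (-0.43) and with upper-quartile scaling (-0.23). Hba-a2 had 437 and 48.7 CPM in the mutant libraries and 188, 224 and 483 CPM in WT (0.34 ± 0.86, adjusted p = 0.781, edgeR), likewise negative with those scalings (-0.30 and -0.11). In replicate 3 alone both were lower (adjusted p = 0.0406 and 0.0209, edgeR). The alpha copies share most of their sequence: 72.3% of the 50-base words of Hba-a1 and 89.3% of those of Hba-a2 occur in the other, and 53.2% and 58.3% for Hbb-bs and Hbb-bt. How the counting split such reads is not known, so the level of each copy is uncertain, while the chain sums are less affected.

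The 4 globin genes together held 0.852% and 0.164% of all counts in the Tet2-mutant libraries (95% Wilson intervals 0.848 to 0.856 and 0.163 to 0.165) and 0.497%, 0.690% and 1.44% in WT (0.495 to 0.498, 0.688 to 0.692 and 1.44 to 1.45). All 32 members held 1.47% (95% Wilson interval 1.46 to 1.47) and 0.275% (0.273 to 0.276) in the mutant libraries and 1.40% (1.40 to 1.40), 1.73% (1.73 to 1.74) and 2.98% (2.98 to 2.99) in WT, and the intervals cover counting error only. Relative to the other 28 members, globin counts were 1.39 and 1.48 times as large in the mutant libraries and 0.550, 0.662 and 0.938 times in WT. Both mutant libraries were therefore above the WT range in this ratio, although the members' share of all counts was far lower in replicate 3 than in replicate 2. Summed beta over summed alpha counts was 1.64 and 2.02 in the mutant libraries and 2.32, 2.39 and 2.62 in WT. Hbb-bs over Hba-a1 averaged 1.94 ± 0.239 in mutant and 2.56 ± 0.149 in WT libraries (SD, n = 2 and 3). Hbb-bt over Hbb-bs averaged 0.0608 ± 0.0112 in mutant and 0.0838 ± 0.00670 in WT libraries. These 3 beta-globin ratios were lower in both mutant libraries than in every WT library. The exact two-sided permutation p was 0.2 for each, the smallest that 2 against 3 libraries can give.

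**Figure D3:**
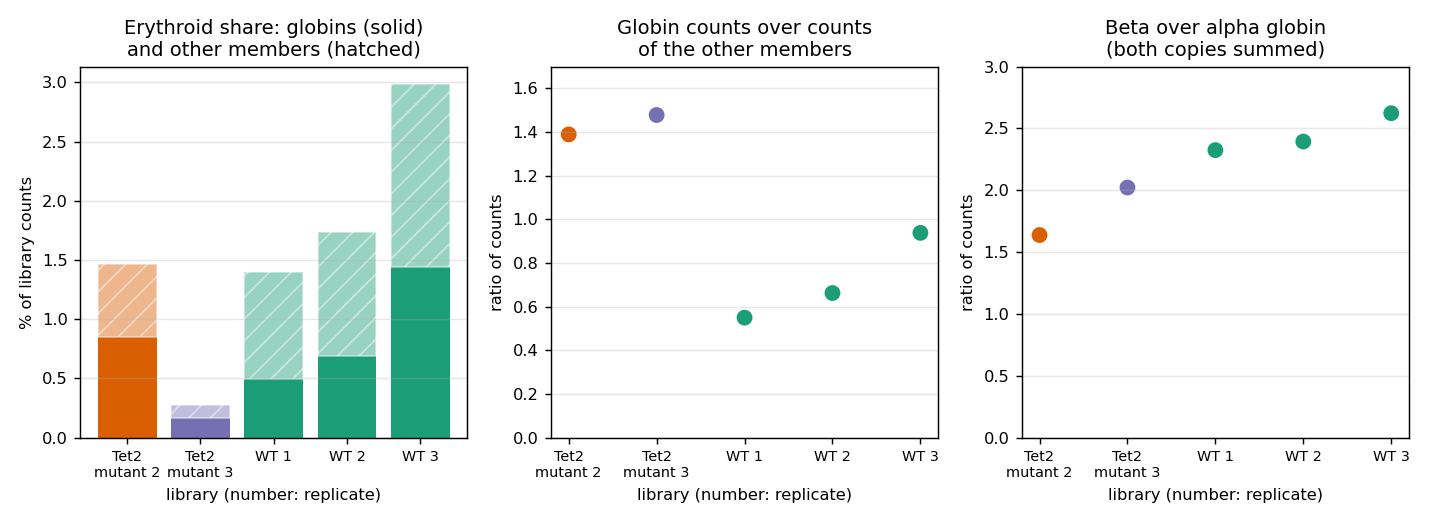
Within-library shares (bars) and ratios (points) of member counts for each library, with Tet2-mutant left of WT. The globin to other-member ratio is 1.39 and 1.48 in the mutant libraries and 0.550 to 0.938 in WT, and beta over alpha globin is 1.64 and 2.02 in the mutant libraries and 2.32 to 2.62 in WT.

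By CPM the 4 transcription factors were below every WT library in both mutant libraries, against 46.8% of all tested genes. With TMM-adjusted sizes Klf1 and Tal1 were, against 33.3% of all tested genes. Klf1, the factor that activates adult beta globin, was at 174 and 36.7 CPM in the Tet2-mutant libraries and at 409, 571 and 716 CPM in WT, with a log2 fold change of -1.80 ± 0.69 (adjusted p = 0.104, edgeR). Gata1, the main erythroid regulator, had 119 and 17.6 CPM in the mutant libraries and 161, 208 and 268 CPM in WT (-1.01 ± 0.76, adjusted p = 0.342, edgeR). Tal1, a partner in the GATA1 complex, had 10.6 and 2.58 CPM in the mutant libraries and 34.9, 33.4 and 54.4 CPM in WT, and was lower in each mutant library taken alone (adjusted p = 0.0376 in replicate 2 and 0.00125 in replicate 3, edgeR). Nfe2, which megakaryocytes and other myeloid cells also express, was the member nearest to WT in replicate 3: it had 354 and 176 CPM in the mutant libraries and 564, 545 and 622 CPM in WT.

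Set against Gata1 in the same library, the other factors and Hba-a1 did not keep their proportions. Klf1 counts per Gata1 count were 1.46 and 2.09 in the Tet2-mutant libraries and 2.54, 2.74 and 2.67 in WT. Nfe2 per Gata1 was 2.98 and 9.98 in the mutant libraries and 3.50, 2.62 and 2.32 in WT. Hba-a1 per Gata1 was 23.5 and 28.0 in the mutant libraries and 8.10, 8.68 and 13.1 in WT. Tal1 per Gata1 was 0.0890 and 0.146 in the mutant libraries and 0.217, 0.160 and 0.203 in WT. In both mutant libraries Klf1 and Tal1 thus lay below the WT range and Hba-a1 above it.

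Of the receptors, Epor was the member with the smallest adjusted p. It was at 24.8 and 11.5 CPM in the Tet2-mutant libraries and at 94.8, 122 and 141 CPM in WT, means of 18.2 ± 9.40 CPM in mutant and 119 ± 23.3 CPM in WT libraries (SD, n = 2 and 3). The groups did not overlap, and Epor (chr9:21958897-21963506, GRCm38) was lower, with a log2 fold change of -2.14 ± 0.47 (adjusted p = 0.032, edgeR). It was also lower in each mutant library alone, at -1.60 ± 0.31 in replicate 2 (adjusted p = 0.0102) and -3.01 ± 0.34 in replicate 3 (adjusted p = 0.00105, edgeR). Without WT replicate 1, 2 or 3, the adjusted p of Epor was 0.0684, 0.0574 and 0.0671, so the call was lost without any 1 WT library. Per Gata1 count, Epor was 0.208 and 0.654 in the mutant libraries and 0.588, 0.588 and 0.525 in WT, so the mutant libraries lay on either side of WT.

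Transferrin receptors carry iron into the cell. Tfrc was at 171 and 30.0 CPM in the Tet2-mutant libraries and at 383, 380.2 and 643 CPM in WT (-1.59 ± 0.74, adjusted p = 0.152, edgeR). Tfr2, a second transferrin receptor that also binds EPOR, had 22.0 and 1.55 CPM in the mutant libraries and 66.3, 62.1 and 83.8 CPM in WT. It was lower in replicate 2 alone (-1.02 ± 0.28, adjusted p = 0.0294) and in replicate 3 alone (-5.14 ± 0.36, adjusted p = 0.000382, edgeR). Replicate 3 was 45.5-fold below the WT mean in CPM.

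By CPM the 5 membrane skeleton genes were also below every WT library in both mutant libraries, against 46.8% of all tested genes. With TMM-adjusted sizes Ank1, Add2 and Epb41 were, against 33.3% of all tested genes. Ank1, ankyrin, which ties spectrin to band 3, was at 5.04 and 3.27 CPM in the Tet2-mutant libraries and at 20.2, 20.9 and 34.0 CPM in WT, means of 4.16 ± 1.25 CPM in mutant and 25.0 ± 7.74 CPM in WT libraries. Ank1 (chr8:22974844-23150497, GRCm38) was lower, with a log2 fold change of -2.04 ± 0.53 (adjusted p = 0.0454, edgeR), and differed little between the mutant libraries. The call was lost without WT replicate 1, 2 or 3 (adjusted p = 0.128, 0.149 and 0.230). Ank1 lies over Mir486 and an antisense transcript, and the strand setting of the counts is not known.

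Add2, an adducin that caps actin in the spectrin net, was at 31.1 and 2.46 CPM in the Tet2-mutant libraries and at 92.1, 96.4 and 158 CPM in WT. It showed the largest fall of the members in replicate 3 alone (-5.19 ± 0.50, adjusted p = 0.000736) and a smaller one in replicate 2 alone (-1.23 ± 0.39, adjusted p = 0.0465, edgeR). Sptb, the erythroid beta spectrin, had 85.6 and 8.53 CPM in the mutant libraries and 113, 90.9 and 166 CPM in WT. Epb41, protein 4.1, had 54.0 and 23.4 CPM in the mutant libraries and 177, 118 and 265 CPM in WT, and Epb42, protein 4.2, was at 96.2 and 12.5 CPM in mutant libraries and 160.3, 138 and 276 CPM in WT libraries. None of these 3 was called over 5 libraries (adjusted p = 0.535, 0.0696 and 0.306, edgeR). All 3 were lower in replicate 3 alone, and Sptb and Epb42 had fold changes of 0.14 and -0.33 in replicate 2 alone.

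Transporters and channels followed the same order. Slc4a1, the anion exchanger band 3, was at 239 and 20.5 CPM in the Tet2-mutant libraries and at 532, 315 and 655 CPM in WT (-1.30 ± 0.93, adjusted p = 0.318, edgeR). Aqp1, a water channel, had 79.2 and 10.3 CPM in the mutant libraries and 255, 240.5 and 285 CPM in WT, lower in replicate 2 alone (-1.05 ± 0.24, adjusted p = 0.0163) and in replicate 3 alone (-4.29 ± 0.29, adjusted p = 0.000361, edgeR). Tspo2, a cholesterol-binding protein of erythroblasts, had 17.8 and 5.34 CPM in the mutant libraries and 67.2, 70.2 and 116 CPM in WT, and just missed the threshold over 5 libraries (-2.28 ± 0.64, adjusted p = 0.0524, edgeR). Slc25a37, mitoferrin, which brings iron into mitochondria, had 156 and 30.6 CPM in the mutant libraries and 222, 225 and 421 CPM in WT.

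By CPM the 6 blood group and surface protein genes were below every WT library in both mutant libraries, against 46.8% of all tested genes. With TMM-adjusted sizes all but Rhd were, against 33.3% of all tested genes. None was called over 5 libraries (adjusted p = 0.145 to 0.473, edgeR). Rhd, of the Rh complex, was at 573 and 65.7 CPM in the Tet2-mutant libraries and at 680.3, 785 and 1178 CPM in WT, and its partner Rhag had 215 and 25.1 CPM in the mutant libraries and 367, 389 and 723 CPM in WT. Kel, of the Kell blood group, was at 60.4 and 7.26 CPM in mutant libraries and 171, 151 and 252 CPM in WT libraries, and Ermap, of the Scianna group, at 90.1 and 12.7 CPM in mutant libraries and 216, 185 and 234 CPM in WT libraries. Gypc, glycophorin C, was at 158 and 45.6 CPM in mutant libraries and 255, 286 and 451 CPM in WT libraries. Art4, of the Dombrock group, was the scarcest, at 7.85 and 1.01 CPM in the mutant libraries and at 24.5, 16.1 and 40.6 CPM in WT.

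Among the enzymes, Car2, carbonic anhydrase 2, was at 2363 and 367 CPM in the Tet2-mutant libraries and at 2714, 3810.4 and 5182 CPM in WT. Car1 had 443 and 52.6 CPM in the mutant libraries and 591, 853 and 958 CPM in WT. Bpgm, which makes 2,3-bisphosphoglycerate, had 314 and 92.7 CPM in the mutant libraries and 202, 209 and 599 CPM in WT, its replicate 2 value inside the WT range. Of the remaining members, Hemgn, a nuclear regulator of erythroid genes, was at 116 and 24.8 CPM in mutant libraries and 289, 318 and 492 CPM in WT libraries, and Trim10 at 143 and 20.2 CPM in mutant libraries and 163, 173 and 370.3 CPM in WT libraries. Trim58, a ubiquitin ligase of late erythroblasts, had 11.9 and 0.380 CPM in the mutant libraries and 11.4, 8.13 and 13.4 CPM in WT. The replicate 3 value rests on 23 counts (exact 95% Poisson interval 0.241 to 0.570 CPM).

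Per kilobase of exon, Hbb-bs led in both groups, with mean levels of 3901 CPM per kb in Tet2-mutant and 7511 in WT libraries. Hba-a1 followed at 2023 in mutant and 2717 in WT libraries and Car2 at 564 in mutant and 1611 in WT. Below these, Hba-a2 was at 364 in mutant and 447 in WT, and Hbb-bt at 281 in mutant and 709 in WT, so the order of this pair differed between the groups. The lowest WT level was that of Ank1, at 1.85 CPM per kb.

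WT libraries also differed among themselves. All 32 members were highest in WT replicate 3 among the WT libraries, against 27.7% of all tested genes. The highest WT value was 1.14 times the lowest for Nfe2 and 3.43 times for Hbb-bt, and above 2 times for 10 members, the 4 globins among them. Erfe, erythroferrone, the erythroblast hormone that lowers hepcidin, had 2.29 and 0.430 CPM in the mutant libraries and 1.86, 1.13 and 25.9 CPM in WT, high in the same WT library.

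Of 28 tested erythroid genes outside the members, 25 were lower in CPM in Tet2-mutant replicate 3 than in replicate 2, the exceptions being Rhbdf1, Bnip3l and Cd47. Of the 28, 1 was called higher, Slc2a1, and 0 lower over 5 libraries, with a median log2 fold change of -0.73. Of all tested genes 10.6% were called higher and 4.43% lower. The median of the 28 was -2.17 in replicate 3 alone and -0.21 in replicate 2 alone. Over all tested genes these medians were -0.30 and -0.49. In the alpha-globin region of chromosome 11, Nprl3, whose introns hold alpha-globin enhancers, had 46.4 and 39.3 CPM in the mutant libraries and 40.2, 40.7 and 47.8 CPM in WT. Hbq1b, the theta globin, was at 19.4 and 4.40 CPM in mutant libraries and 19.9, 25.0 and 42.3 CPM in WT libraries. Rhbdf1, in the same region, was at 1.09 and 15.3 CPM in mutant libraries and 4.44, 1.24 and 1.84 CPM in WT libraries, and was higher in replicate 3 alone (log2 fold change 2.97 ± 0.60, adjusted p = 0.00716, edgeR).

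The 14 heme synthesis genes had 1 lower call, Uros, and 0 higher, with a median of -0.89. Of all tested genes 4.43% were called lower and 10.6% higher. Uros was at 50.3 and 48.9 CPM in the Tet2-mutant libraries and at 141, 172 and 227 CPM in WT (-1.33 ± 0.31, adjusted p = 0.036, edgeR), nearly the same in both mutant libraries. The median of the 14 was -2.26 in replicate 3 alone and -0.25 in replicate 2 alone, against -0.30 and -0.49 over all tested genes. Alas2, the first and rate-limiting enzyme in erythroblasts, had 579 and 73.4 CPM in the mutant libraries and 642, 613 and 1533 CPM in WT.

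Embryonic globins had 0 counts in both mutant libraries in all 4 genes examined. At these depths, a count of 0 allows up to 0.172 CPM in mutant replicate 2 and up to 0.0496 CPM in mutant replicate 3. The WT levels were at most 0.152 CPM, under the limit for replicate 2, where a difference was not detectable at this depth.

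Of 18 partner factors and other erythroid regulators, 2 were lower and 1 higher over 5 libraries. The shares over all tested genes were 4.43% lower and 10.6% higher. Zfpm1, FOG1, the GATA1 cofactor, was at 12.8 and 12.0 CPM in the Tet2-mutant libraries and at 73.9, 48.5 and 72.1 CPM in WT (-1.85 ± 0.36, adjusted p = 0.022, edgeR). Foxo3 was also lower (7.67 and 8.83 CPM in the mutant libraries, 30.7, 35.3 and 43.2 CPM in WT). Cbfa2t3, a corepressor of the TAL1 complex, was higher (31.8 and 54.5 CPM in the mutant libraries, 19.1, 19.6 and 25.7 CPM in WT). Of 13 genes of erythropoietin signalling, 2 were higher and 0 lower, the feedback inhibitors Socs2 and Socs3. Socs3, which many cytokines induce, had 167 and 86.5 CPM in the mutant libraries and 37.3, 25.6 and 40.8 CPM in WT (2.45 ± 0.41, adjusted p = 0.014, edgeR). Socs2 was at 29.4 and 8.26 CPM in mutant libraries and 3.60, 3.11 and 3.11 CPM in WT libraries. Cish, a STAT5 target, had 50.1 and 7.17 CPM in the mutant libraries and 7.42, 5.98 and 13.6 CPM in WT, and was not called.

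**Figure D4:**
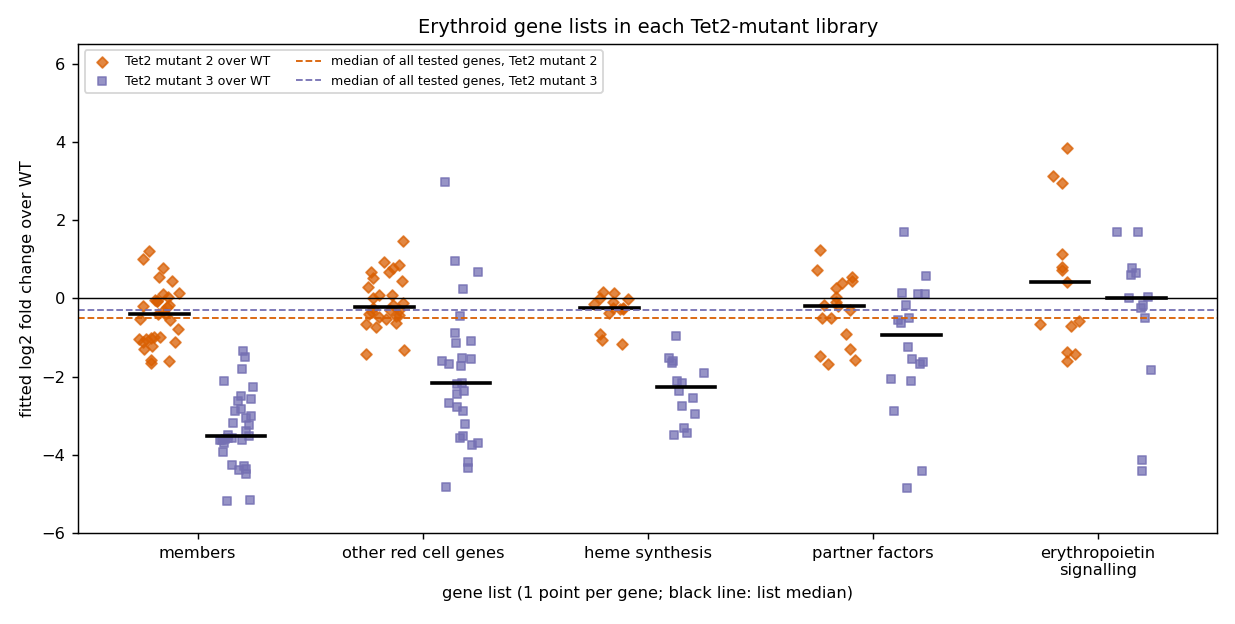
Log2 fold change over WT of the genes of each erythroid list, from edgeR fits of Tet2-mutant replicate 2 alone and replicate 3 alone. Each point is a gene, black lines are list medians, and dashed lines are the medians of all tested genes in each fit. The members' median is -0.40 in replicate 2 alone and -3.50 in replicate 3 alone. The medians of all tested genes are -0.49 and -0.30.

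Markers of other cells differed between the libraries as well. Summed over 12 genes, macrophage markers were at 3711 and 3456 CPM in the Tet2-mutant libraries and at 852 to 1185 CPM in WT, with 8 of 12 called higher and 0 lower. Siglec1, of that list, had 3 and 0 counts in the mutant libraries and 83, 56 and 34 counts in WT. Of 9 B cell markers 3 were higher, and their sum was 672 and 6319 CPM in the mutant libraries and 154 to 808 CPM in WT. Of 7 T cell markers 6 were higher (1043 and 1672 CPM in the mutant libraries, 150.1 to 245 CPM in WT). All 8 acinar markers of the pancreas were higher, at 402 and 1180 CPM in the mutant libraries and 46.3 to 63.2 CPM in WT. The 12 proliferation genes had a median of -1.32 with 0 called, and summed to 2289 and 639 CPM in the mutant libraries and 4446 to 6053 CPM in WT, lower in replicate 3 than in replicate 2 as the members were. Among the marker lists the other gene at 0 in any library was Gp1bb of megakaryocytes, with 1 and 0 counts in the mutant libraries and 10, 14 and 3 counts in WT. Megakaryocyte genes had 1 higher and 1 lower call of 11, basophil and mast cell genes 1 lower of 7, monocyte genes 2 higher of 10, and neutrophil genes 0 of 10. Of all tested genes 10.6% were called higher and 4.43% lower. All 10 neutrophil genes were below every WT library in replicate 3, against 57.1% of all tested genes. All 10 were also lower there than in replicate 2, against 48.1%. Their median log2 fold change in replicate 3 alone was -1.57. That of the proliferation genes was -2.87, against -0.30 over all tested genes. In replicate 3, B cell, T cell and acinar sums were the highest, while those of the members, neutrophil genes and proliferation genes were the lowest. Between the mutant libraries the T cell sum mainly followed Cd2, at 208 CPM in replicate 2 and 912 CPM in replicate 3. Trac was at 312 and 190 CPM in these libraries, and 3 of the 7 T cell genes were lower in replicate 3 than in replicate 2. The part of the other lists in the result was not tested.

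The genes whose log2 levels over the 5 libraries followed the mean of the 4 globins most closely, of 8579 considered, included Vopp1 and Usp14 (Pearson r = 0.995 each) and Amd1 (0.994). These correlations describe 5 libraries that differ in depth, and carry no test. Usp14, a ubiquitin protease of the proteasome, had 141 and 63.9 CPM in the mutant libraries and 113, 128 and 161 CPM in WT.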

How the data were processed

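Gene counts were deposited by the authors as whole numbers, 1 file per library with 55291 symbols. Per the labels' protocols, 1.3 ug of total RNA went into each library. The submitters' processing notes name Trimmomatic, STAR and the mm10 build. No version of these, and no read counter, annotation or strand setting, is given in the sources at hand. From the counts, CPM were computed by library total, without molecular identifiers, so intervals cover counting error only. Genes were kept by filterByExpr and tested with edgeR 4.0.16 (R 4.3.3, limma 3.58.1), with TMM scaling and the quasi-likelihood F-test. The common biological coefficient of variation was 0.507, and the SE is the absolute log2 fold change over the root of F. Gene positions and exon lengths are from GENCODE M21 (GRCm38) and promoters from RefSeq (GRCm38.p6). Shared sequence was the share of a gene's 50-base words found in other genes' transcripts. Alternatives were other scaling, filters, DESeq2 1.42.0, the replicate number as a block, and each library left out.

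The members and the gene lists were chosen with earlier results of these data known. Named genes were the members, the 3 genes with the highest mean CPM of each other list, Tet2 and the 5 genes most like the globins (log2 of CPM + 1, mean of 10 CPM or more). Of those the text gives the ones that bear on the members, and some are not reported here. Uros, Zfpm1, Foxo3, Cbfa2t3, Socs2, Socs3, Cish, Slc2a1, Erfe, Nprl3, Hbq1b, Rhbdf1, Bnip3l, Cd47, Siglec1 and Gp1bb, and the ratios printed, were chosen after their values were seen where the rule does not name them.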

Additional observations from a re-analysis of the deposited data

How the results depend on the processing

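Counts of calls depended on the processing. Of all genes, 1801 were called higher and 755 lower. With upper-quartile scaling 1419 were higher and 1837 lower, and with total counts as the only scaling 1181 and 2877. Without the filter on low counts the numbers were 3059 and 1498, and with DESeq2 3146 and 2377. With 1 CPM in 3 libraries as the filter, 472 were lower. Among members, 2 were called lower, and this became 7 with upper-quartile scaling, 9 with total counts, 20 without the filter and 5 with DESeq2. Leaving out 1 library gave 616 to 4904 higher and 6 to 5958 lower calls, and 0 to 31 members lower: 0 without any 1 WT library, 31 without Tet2-mutant replicate 2 and 7 without Tet2-mutant replicate 3. No alternative that was run called a member higher. The causes were not tested.

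Libraries numbered 2 and 3 exist for each genotype, and the labels do not say whether equal numbers mean pairs. Deviations from the genotype mean had r = -0.03 between the libraries numbered 2 and -0.02 between those numbered 3. With 2 mutant libraries, the deviations of one mirror those of the other. The r values therefore cannot decide whether equal numbers mark a shared batch. In a fit with the replicate number as a block, 752 genes were higher and 232 lower, and 21 members were lower. WT replicate 1 is alone in its block and does not inform the genotype difference of that fit. Little spread between libraries is left there to judge the calls, so the 21 members are not stronger evidence than the fit without a block.

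Signs of 8 members turned. Hba-a1 (0.20) became -0.23 with upper-quartile scaling, -0.43 with total counts and -0.59 with the block, and ran from -1.80 to 1.0 with 1 library left out. Hba-a2 (0.34) became -0.11, -0.30 and -0.66, and ran from -2.26 to 1.21. With 1 library left out, Hbb-bs ran from -2.11 to 0.44, Hbb-bt from -2.82 to 0.11, Rhd from -3.38 to 0.044, Sptb from -3.49 to 0.14, Trim58 from -4.48 to 0.78 and Bpgm from -1.50 to 0.68. The low end came without Tet2-mutant replicate 2. The high end came without Tet2-mutant replicate 3, except for Bpgm (without WT replicate 3). Depth limits what can be said of genes with few counts, such as Trim58 and the embryonic globins.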
